A study of Bos taurus with 3 samples.

Results

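The antioxidant, glutathione and metal-binding genes of the bovine mammary gland were followed through the onset of lactation. Members were chosen by symbol: glutathione peroxidases, glutathione transferases, the enzymes of glutathione synthesis and reduction, peroxiredoxins, the thioredoxin and glutaredoxin names, superoxide dismutases, catalase, quinone and heme enzymes, 3 selenoproteins, ferritin, metallothioneins, transferrin and the NFE2L and KEAP1 regulators. The rule found 68 accessions with 66 symbols among 9154 genes (0.743%), and 62 of them were listed in all 3 libraries. It works on names alone, so it also took in relatives with other known duties, such as TXNIP, an inhibitor of thioredoxin, and TXNL4A, a component of the spliceosome. FTL, TFRC, CP, SRXN1 and SOD1, whose names the rule covers too, were not analysed here.

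Mammary biopsies came from 18 Holstein cows in their second parity, for which the labels name neither a treatment nor an allele. With 6 cows each, the 3 times were −35 d (35 days ahead of calving, in the dry period), −7 d (7 days ahead of it) and +3 d (3 days past it). All tissue collected at one time was pooled, and 1 digital gene expression (DGE) library of 21-base tags was sequenced from each pool. The difference between −35 d and −7 d covers stage I of lactogenesis, and that between −7 d and +3 d covers stage II. With 1 library per time, the spread between cows was not measured, and every test below compares 2 libraries and not 2 conditions.

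Aerobic cells turn part of their oxygen into superoxide, which superoxide dismutases convert to hydrogen peroxide. Catalase, the glutathione peroxidases and the peroxiredoxins then remove the peroxide, and glutathione and thioredoxin, kept reduced at the cost of NADPH, supply the electrons. Glutathione transferases join glutathione to reactive compounds, while ferritin and the metallothioneins hold iron, zinc and copper in bound form. NFE2L2 (NRF2), held back by KEAP1, is a main transcription factor of many of these genes. In dairy cows the weeks around calving are a time of high metabolic rate in the udder, and selenium and antioxidant status at that time are linked to udder health.

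The libraries held 5914422, 5593237 and 5845821 clean tags at −35 d, −7 d and +3 d, of which 77654, 54929 and 54507 fell on members. Levels are given as TPM, the tags of a gene scaled to a library total of 1000000 clean tags. Where a fold is given for a count of 0 tags, 3 tags (0.507 to 0.536 TPM) stood in for it. Intervals are exact binomial 95% intervals that cover counting error alone, and for 0 tags they reached 0.624 to 0.660 TPM. The 5 genes with over 1% of the tags of any library, which were 4 caseins and PAEP (β-lactoglobulin), held 0.348%, 4.13% and 22.6% of all clean tags at −35 d, −7 d and +3 d. The median log2 ratio of genes averaging 5 TPM or more was below 0, at −0.16 in stage I, −0.34 in stage II and −0.52 over the whole interval, and TMM scaling raised all log2 ratios by 0.19, 0.31 and 0.50. Calls are on the TPM scale, and a call that TMM scaling did not make is named as such. As the tissue was bulk, fewer cells of a type and less RNA per cell cannot be told apart. The 7 milk secretion markers rose in both stages, from a summed level of 3493 TPM to 41567 and 231424 TPM, and the 9 markers of luminal epithelium summed to 2295, 1594 and 1519 TPM.

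The members held 1.31%, 0.982% and 0.932% of the clean tags at −35 d, −7 d and +3 d. FTH1, the heavy chain of ferritin, gave 56.2% to 58.3% of these tags. Without FTH1, the members summed to 5699, 4300 and 3887 TPM. Ratios and calls of single members went both ways, and their medians lay close to those of all genes in both stages. A gene was called when the Audic-Claverie test gave a false discovery rate (FDR) of at most 0.001 over all genes and the TPM differed at least 2-fold.

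**Figure D1:**
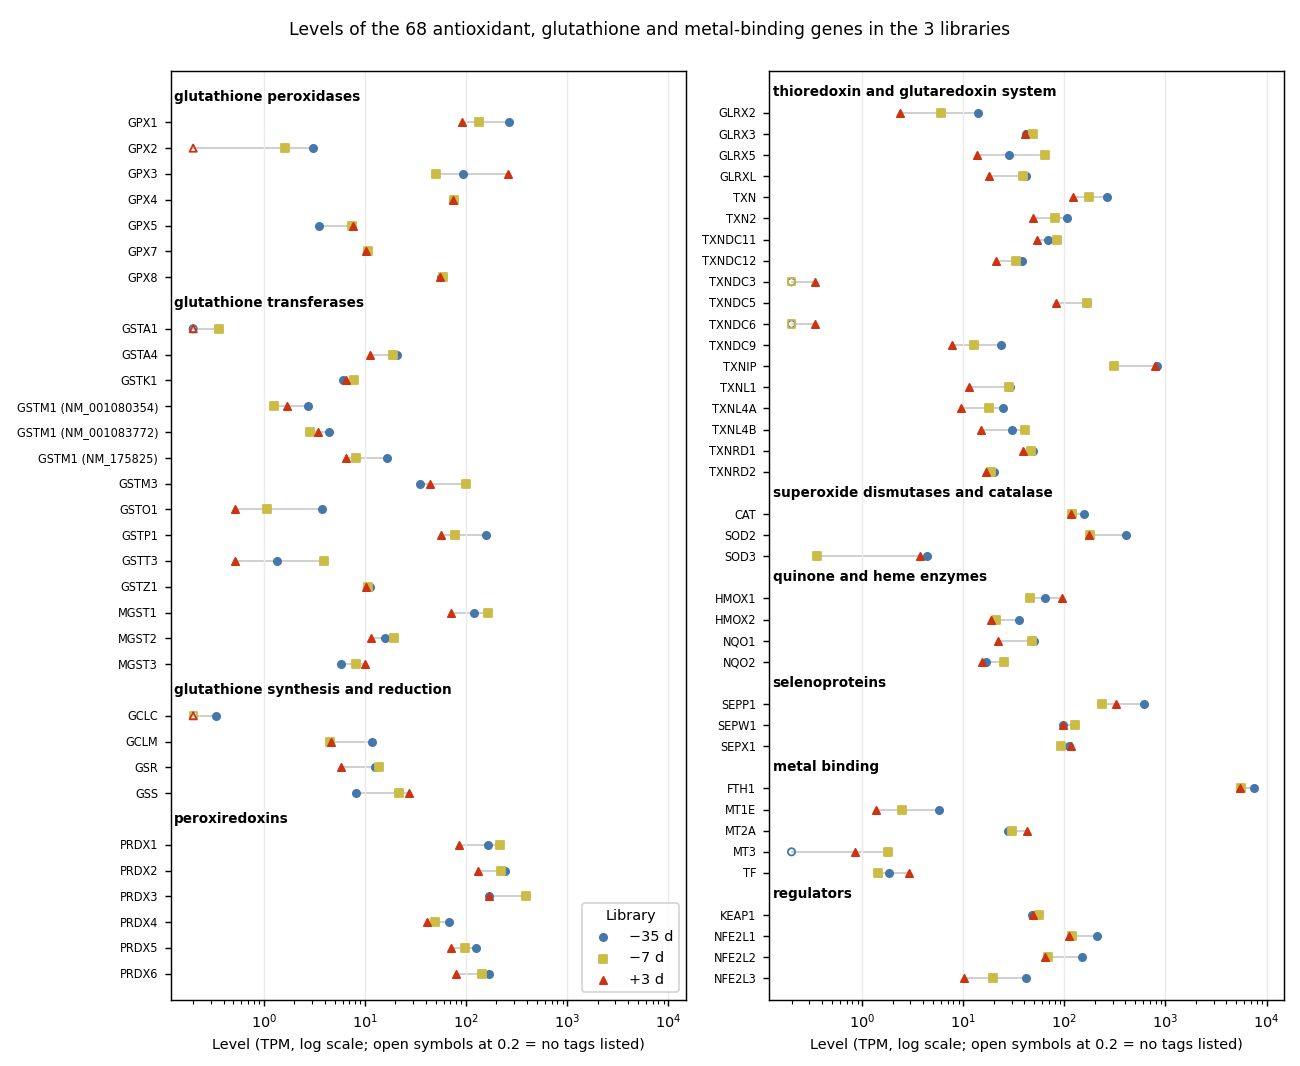
Levels of all 68 members in TPM on a log axis, with 1 symbol per library (circle −35 d, square −7 d, triangle +3 d) and open symbols for a library with no tags listed. FTH1, at 7431, 5520 and 5438 TPM, stood above every other member, and the widest gap among members listed in all 3 libraries was that of SOD3, from 4.40 to 0.358 TPM.

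In stage I, 4 of the 66 members with a tag in either library were upregulated (6.06%) and 10 were downregulated (15.2%), where 2.62% and 6.45% of all genes were called in these directions. GSTM3, GLRX5, PRDX3 and GSS rose. SOD3, TXNIP, SEPP1, SOD2, GCLM, GLRX2, NFE2L2, NFE2L3, GSTP1 and 1 accession of GSTM1 fell. With TMM scaling the same 4 genes were called up, but only SOD3, TXNIP and SEPP1 were still called down, against 4.22% up and 3.90% down over all genes. The median log2 ratio of the 62 members with over 3 tags in both libraries was −0.17 (0.02 with TMM), and 31 of them lay above and 31 below the median gene.

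In stage II, 4 of 67 members were upregulated (5.97%) and 12 downregulated (17.9%), beside 3.12% and 10.4% of all genes. SOD3, TXNIP, GPX3 and HMOX1 rose. GSTM3, GSTT3, MGST1, GSR, PRDX1, PRDX3, GLRX5, GLRXL, TXNL1, TXNL4B, TXNDC5 and NQO1 fell. TMM scaling left the 4 rises and 4 of the falls (PRDX1, GLRX5, TXNL1 and TXNL4B), where 5.87% and 4.90% of all genes were called up and down. The median over 60 members was −0.38 (−0.07 with TMM), and 30 of them lay above the median gene.

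Between −35 d and +3 d, 2 of 67 members rose (2.99%) and 23 fell (34.3%), beside 2.33% and 16.3% of all genes. GPX3 and GSS were the 2 that rose. With TMM scaling the counts became 6 up (8.96%) and 5 down (7.46%), beside 6.23% and 4.94% of all genes, so that most of the difference in direction went with the scaling. GPX1, GPX2, GLRX2, TXNDC9 and NFE2L3 were called lower with both scalings, and HMOX1, GPX5, MGST3 and MT2A were called higher with TMM alone. The median of 60 members was −0.73 (−0.24 with TMM). Calls need tags, and 55 of the 68 members but 5902 of the 9154 genes averaged 5 TPM or more. Of these better-tagged members 36.4% were called down over the whole interval, beside 22.0% of the better-tagged genes, and the shares were 16.4% and 8.07% in stage I and 20.0% and 14.4% in stage II. The shares called up were 3.64% and 2.91% over the whole interval, 7.27% and 3.69% in stage I, and 5.45% and 4.20% in stage II.

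The calls rest on counting error alone. Where a biological coefficient of variation of 0.2 was assumed in edgeR's exact test, no member was called in stage I. Of all genes, 0.301% were called up and 0.301% down in that stage. In stage II GPX3 was called up and GLRX5 down, beside 0.740% and 1.08% of all genes, and over the whole interval GLRX2 and NFE2L3 were called down and none up, beside 1.13% and 0.601%.

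**Figure D2:**
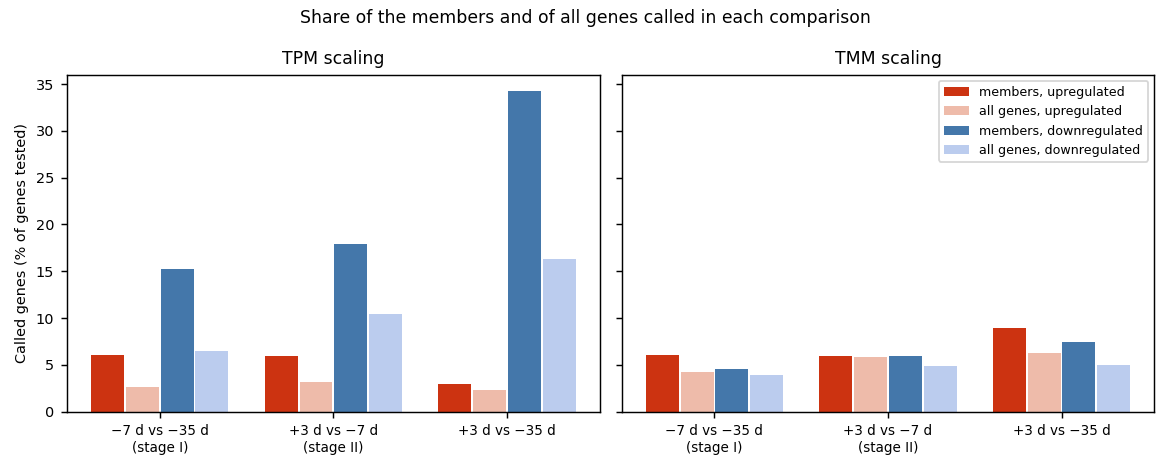
Percentage of the members tested (dark bars) and of all genes tested (light bars) that were called up (red) or down (blue) in each comparison, with TPM scaling on the left and TMM scaling on the right. The bars for members called down fell from 15.2%, 17.9% and 34.3% with TPM to 4.55%, 5.97% and 7.46% with TMM.

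In all, 34 members (50.0%) were called in at least 1 comparison with TPM scaling and 20 (29.4%) with TMM scaling, beside 27.2% and 19.9% of all genes. No member was called up in both stages and none was called down in both, with either scaling. SOD3 and TXNIP fell and then rose with both scalings. GSTM3, GLRX5 and PRDX3 rose and then fell with TPM scaling, and with TMM only GLRX5 did so. Called members with levels that went down from −35 d over −7 d to +3 d numbered 19 (27.9%) with TPM scaling and 5 (7.35%) with TMM, beside 12.2% and 3.30% of all genes.

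**Figure D3:**
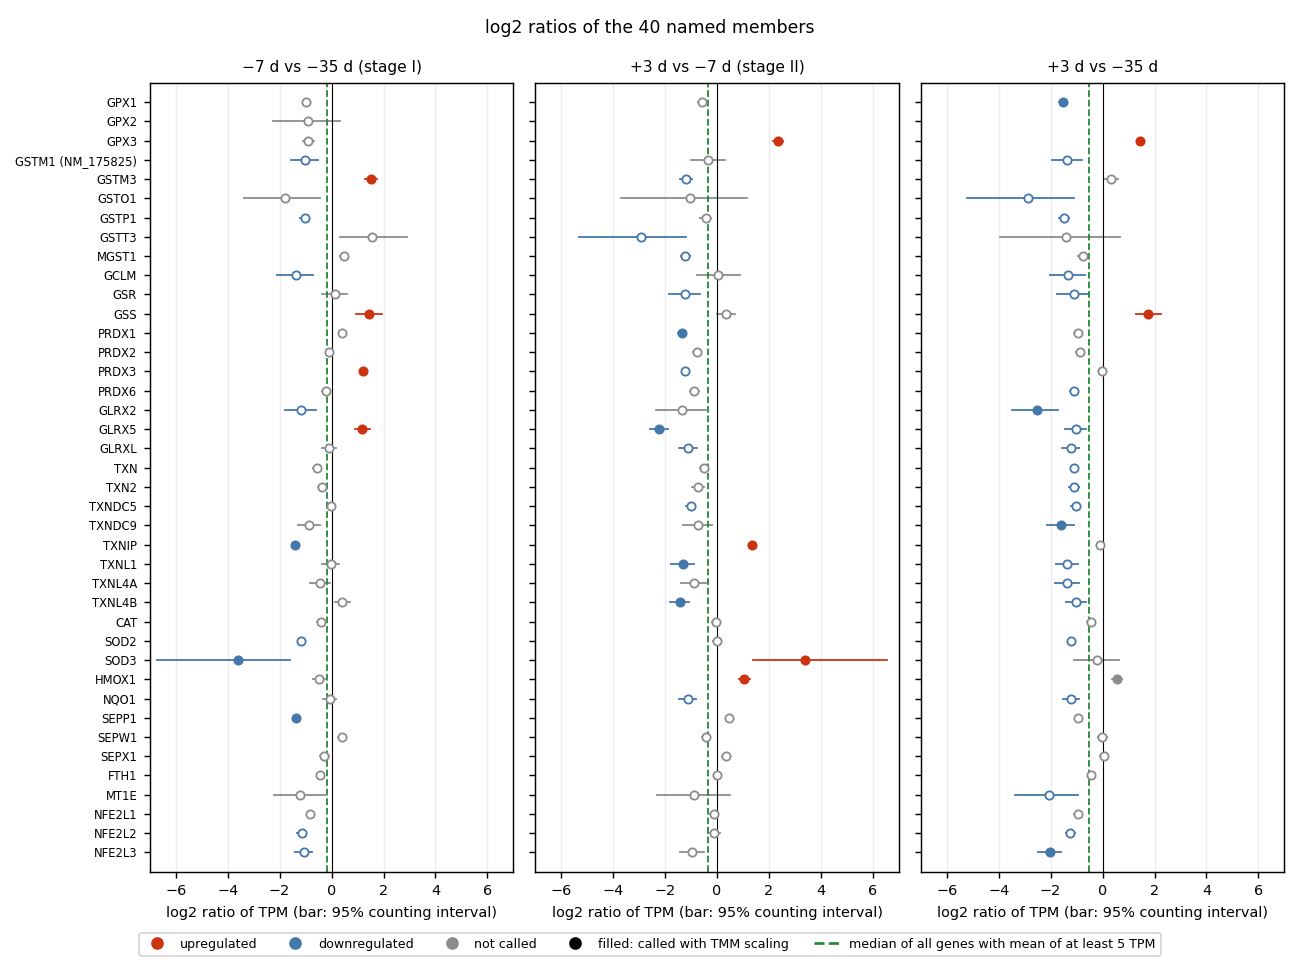
log2 ratio of TPM with its 95% counting interval for the 40 members named by rule, in stage I, stage II and over the whole interval. Red and blue mark genes called up and down, filled points genes called with TMM scaling, and the green dashed line the median of all genes averaging 5 TPM or more. GPX2 has no ratio where it was listed at 0, and TXNIP and SOD3 stand left of 0 in stage I and right of it in stage II, and GSTM3, GLRX5 and PRDX3 stand the other way.

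Glutathione is made by glutamate-cysteine ligase and glutathione synthetase and is recycled by glutathione reductase. GSS, the synthetase, was measured at 8.12, 21.8 and 27.4 TPM at −35 d, −7 d and +3 d. It rose 2.69-fold in stage I (log2 ratio 1.43, 95% counting interval 0.93 to 1.94) and stood 3.37-fold above −35 d at +3 d, with both scalings, while the step of stage II (0.33, −0.02 to 0.68) was not called. GCLM, the modifier subunit of the ligase, had 11.7, 4.47 and 4.62 TPM, and it fell in stage I (−1.38, −2.11 to −0.71). GSR, the reductase, had 12.7 and 13.8 TPM before parturition and fell to 5.82 TPM after it (stage II −1.24, −1.87 to −0.64). The falls of GCLM and GSR were not called with TMM scaling. The 2 enzymes of synthesis with values to compare therefore stood on opposite sides: GSS was lowest and GCLM highest at −35 d. GCLC, the catalytic subunit, had 2 tags at −35 d and none at the other times, too few to compare.

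The 7 glutathione peroxidases did not share a direction. GPX1, the enzyme of the cytosol, had 266, 135 and 91.2 TPM. It was 2.92-fold lower at +3 d than at −35 d with both scalings (log2 ratio −1.54, −1.69 to −1.40), and neither single stage reached 2-fold. GPX3, the secreted enzyme of plasma and extracellular fluid, had 94.2, 50.8 and 257 TPM. Its stage I ratio of −0.89 did not pass the fold threshold, and it then rose 5.06-fold in stage II (2.34, 2.16 to 2.53), to 2.73-fold above −35 d. GPX1 thus stood above GPX3 before parturition and below it at +3 d in tags. Tag counts of different genes need not compare as their molecules do, since tags start at CATG sites and those of several genes were left out. GPX4, which reduces lipid peroxides in membranes, lay at 74.2, 75.8 and 74.6 TPM, and GPX7 and GPX8, enzymes of the endoplasmic reticulum, ranged only from 10.3 to 10.7 and from 54.7 to 58.8 TPM. These values changed little on the TPM scale, but against TMM totals the log2 ratio of GPX4 over the whole interval was 0.50. GPX2 had 18, 9 and 0 tags and was called lower at +3 d than at −35 d (FDR 1.67e-05, Audic-Claverie test with Benjamini-Hochberg adjustment), and a gene not listed was taken as 0. The fold was 5.93 when 3 tags stood in for 0. This is not a lower limit, as the intervals were 1.80 to 4.81 TPM at −35 d and 0 to 0.631 TPM at +3 d. GPX5 had only 21, 42 and 45 tags, and its log2 ratio of 1.12 over the whole interval was called with TMM alone.

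Glutathione transferases (14 accessions, 12 symbols) summed to 402, 426 and 234 TPM, and 1 rose and 2 fell in stage I while 3 fell in stage II. Of all genes, 2.62% were called up and 6.45% down in stage I, and 10.4% down in stage II. GSTM3, of the mu class, had 35.3, 101 and 44.3 TPM. It rose 2.87-fold in stage I with both scalings (1.52, 1.29 to 1.76) and was 2.29-fold lower again at +3 d, a fall whose TMM log2 ratio of −0.89 was not called. The 3 accessions named GSTM1 were all highest at −35 d on the TPM scale, and that with the most tags fell from 16.7 to 8.22 TPM in stage I and stood at 6.50 TPM at +3 d. These mu-class genes resemble each other closely, and the split of tags among them is uncertain. GSTP1, of the pi class, had 158, 77.6 and 57.1 TPM and fell in stage I (−1.03, −1.20 to −0.86). MGST1, a membrane-bound transferase and peroxidase, had 120, 164 and 70.5 TPM and fell in stage II (−1.22, −1.39 to −1.05). For GSTM1, GSTP1 and MGST1 no call held with TMM scaling. GSTT3 had 8, 22 and 3 tags and GSTO1 had 22, 6 and 3. Their called falls, of GSTT3 in stage II (log2 ratio −2.94, −5.32 to −1.20) and of GSTO1 over the whole interval (−2.86, −5.24 to −1.12), rest on these few tags and were lost with TMM. The other transferases were called in no comparison, apart from MGST3 (5.75, 8.22 and 9.92 TPM), which was called higher at +3 d than at −35 d with TMM alone.

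Peroxiredoxins, which reduce peroxides with electrons from thioredoxin, were among the more abundant members, with a sum of 932, 1121 and 573 TPM for the 6 genes. PRDX3, the form of the mitochondrion, had 170, 391 and 167 TPM. It rose 2.30-fold in stage I (1.20, 1.10 to 1.31), with both scalings, and was 2.34-fold lower in stage II, so that its levels at −35 d and +3 d differed by less than the counting error on the TPM scale (log2 ratio −0.02, −0.15 to 0.11). With TMM scaling the log2 ratio over the whole interval was 0.48, and the stage II fall was not called (−0.92). PRDX1, of the cytosol and nucleus, had 163, 217 and 84.7 TPM and fell 2.56-fold in stage II with both scalings (−1.36, −1.51 to −1.20). PRDX2, PRDX4 and PRDX5 were called in no comparison, with levels of 240, 224 and 131 TPM for PRDX2. PRDX6, which uses glutathione in place of thioredoxin, had 169, 144 and 78.9 TPM and was called lower at +3 d than at −35 d with TPM scaling alone (−1.10). All 6 genes had a stage II log2 ratio below 0, from −1.36 to −0.25, with a median of −0.82 beside −0.34 for the median gene given above. With TMM scaling 5 of the 6 were below 0 and PRDX4 was at 0.06.

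Members with a thioredoxin or glutaredoxin name numbered 18. They were 2 thioredoxins, 2 thioredoxin reductases and 4 glutaredoxins, along with TXNIP and 9 TXNDC and TXNL genes, several of which have other duties. All 16 of the 18 with over 3 tags at −35 d and +3 d were lower at +3 d on the TPM scale, with a median log2 ratio of −1.04 (−0.54 with TMM), and 10 were called down, of which 2 were called with TMM, beside 16.3% and 4.94% of all genes. With TMM scaling 11 of the 16 were below 0. TXN, the cytosolic thioredoxin, had 261, 174 and 121 TPM, and TXN2, the mitochondrial one, had 105, 81.5 and 48.9 TPM. Both were called lower over the whole interval with TPM scaling alone, at a log2 ratio of −1.10 each. Their reductases TXNRD1, with 49.2, 46.7 and 39.2 TPM, and TXNRD2, with 20.0, 18.8 and 16.8 TPM, were not called.

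TXNIP, the thioredoxin-interacting protein that inhibits thioredoxin and restrains glucose uptake, had 832, 312 and 782 TPM and was the second most abundant member at −35 d and +3 d. It fell 2.67-fold in stage I (−1.42, −1.50 to −1.34) and rose 2.51-fold in stage II (1.33, 1.25 to 1.41), with both scalings. Its level at −7 d thus lay apart from both other libraries. Between −35 d and +3 d the log2 ratio was only −0.09 on the TPM scale, but it was 0.41 with TMM. GLRX5, a mitochondrial glutaredoxin of iron-sulfur cluster assembly, moved the other way with 28.1, 64.2 and 13.7 TPM. It rose 2.29-fold in stage I (1.19, 0.92 to 1.47) and fell 4.69-fold in stage II (−2.23, −2.60 to −1.88), again with both scalings. GLRX2, another glutaredoxin of the mitochondrion, declined through 13.9, 6.08 and 2.39 TPM, and it was 5.79-fold lower at +3 d than at −35 d with both scalings (−2.53, −3.47 to −1.71). The glutaredoxins were therefore not uniform, since GLRX3, a cytosolic protein of iron handling, lay at 41.3, 49.0 and 40.4 TPM and was not called. GLRXL, named GLRX in the newer annotation, had 41.9, 39.0 and 18.0 TPM and was called lower at +3 d with TPM scaling alone.

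Among the members that carry a thioredoxin fold but other duties, TXNL1, which binds the proteasome, had 29.1, 28.2 and 11.3 TPM, and TXNL4B, a relative of the spliceosome protein TXNL4A, had 30.4, 40.8 and 15.1 TPM. Both fell in stage II with both scalings, at log2 ratios of −1.32 (−1.76 to −0.90) and −1.44 (−1.81 to −1.08). TXNDC9 declined through 23.5, 12.9 and 7.70 TPM and was 3.05-fold lower over the whole interval with both scalings. TXNL4A (24.5, 17.9 and 9.58 TPM) and TXNDC5, a protein disulfide isomerase of the endoplasmic reticulum (169, 167 and 81.9 TPM), were called lower at +3 d with TPM scaling alone. TXNDC3 and TXNDC6 had 2 tags each at +3 d and none before.

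SOD2, the manganese superoxide dismutase of the mitochondrion, had 407, 180 and 177 TPM. It fell 2.26-fold in stage I (−1.18, −1.29 to −1.07) and had a stage II log2 ratio of −0.02 (−0.15 to 0.11). With TMM scaling the stage I log2 ratio of −0.99 fell just short of the 2-fold threshold. Its neighbour in the mitochondrion, PRDX3, rose in the same stage. CAT, catalase, had 158, 120 and 115 TPM and was not called in any comparison. SOD3, the extracellular dismutase, was a rare tag with 26, 2 and 22 copies, which is 4.40, 0.358 and 3.76 TPM. The interval of the −7 d level (0.0433 to 1.29 TPM) did not overlap those of −35 d (2.87 to 6.44 TPM) and +3 d (2.36 to 5.70 TPM), and SOD3 was called down in stage I (log2 ratio −3.62, −6.74 to −1.62) and up in stage II (3.40, 1.37 to 6.53) with both scalings.

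HMOX1, the inducible heme oxygenase that opens the heme ring, had 63.6, 45.4 and 93.7 TPM and rose 2.06-fold in stage II with both scalings (1.05, 0.83 to 1.27). HMOX2, the constitutive form, had 35.3, 21.1 and 18.8 TPM and was not called. NQO1, a quinone reductase widely used as a marker of NFE2L2 activity, had 50.4, 47.9 and 21.9 TPM. It fell in stage II with TPM scaling alone (−1.13, −1.45 to −0.82), while NQO2 at 16.9, 25.0 and 15.4 TPM was not called. HMOX1 and NQO1, both known targets of NFE2L2, thus moved in opposite directions in stage II on the TPM scale.

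Selenoprotein P (SEPP1, now SELENOP), the selenium carrier of plasma, had 616, 238 and 323 TPM. It fell 2.59-fold in stage I with both scalings (−1.37, −1.46 to −1.28), and its stage II log2 ratio of 0.44 (0.75 with TMM) was not called. SEPW1, a small selenoprotein of muscle and other tissues, had 97.4, 128 and 96.1 TPM, and SEPX1, a methionine sulfoxide reductase, had 112, 92.1 and 116 TPM. Neither of these was called.

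Ferritin heavy chain dominated the metal-binding members. FTH1 had 7431, 5520 and 5438 TPM, which was the highest tag count of all genes at −35 d and the sixth highest (rank 6) at −7 d and +3 d. Its stage I log2 ratio of −0.43 (−0.45 to −0.41) was precise to counting error but under 2-fold, and over the whole interval it was −0.45 with TPM and 0.05 with TMM scaling, so that its direction depended on the scaling. MT2A, a metallothionein, had 27.9, 30.4 and 42.6 TPM and was called higher at +3 d than at −35 d with TMM alone. MT1E, a related metallothionein, went the other way on the TPM scale with 34, 14 and 8 tags (whole interval −2.07, −3.39 to −0.93), a call lost with TMM. MT3 had 0, 10 and 5 tags and TF, transferrin, had 11, 8 and 17, and neither was called.

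Of the 4 regulators, 2 fell in stage I on the TPM scale, beside 6.45% of all genes. NFE2L2 had 151, 68.7 and 64.1 TPM and fell in stage I (−1.14, −1.32 to −0.97), and NFE2L3, a relative with less known targets, had 41.4, 19.7 and 10.1 TPM. The stage I falls of NFE2L2 (−0.95) and NFE2L3 (−0.88) were not called with TMM, where 3.90% of all genes were called down. Over the whole interval NFE2L3 was 4.10-fold lower at +3 d than at −35 d with both scalings (−2.04, −2.47 to −1.62). NFE2L1, a factor known for proteasome genes, had 212, 120 and 110 TPM and was not called. KEAP1, which marks NFE2L2 for breakdown, had 47.8, 55.8 and 49.3 TPM and was not called.

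**Figure D4:**
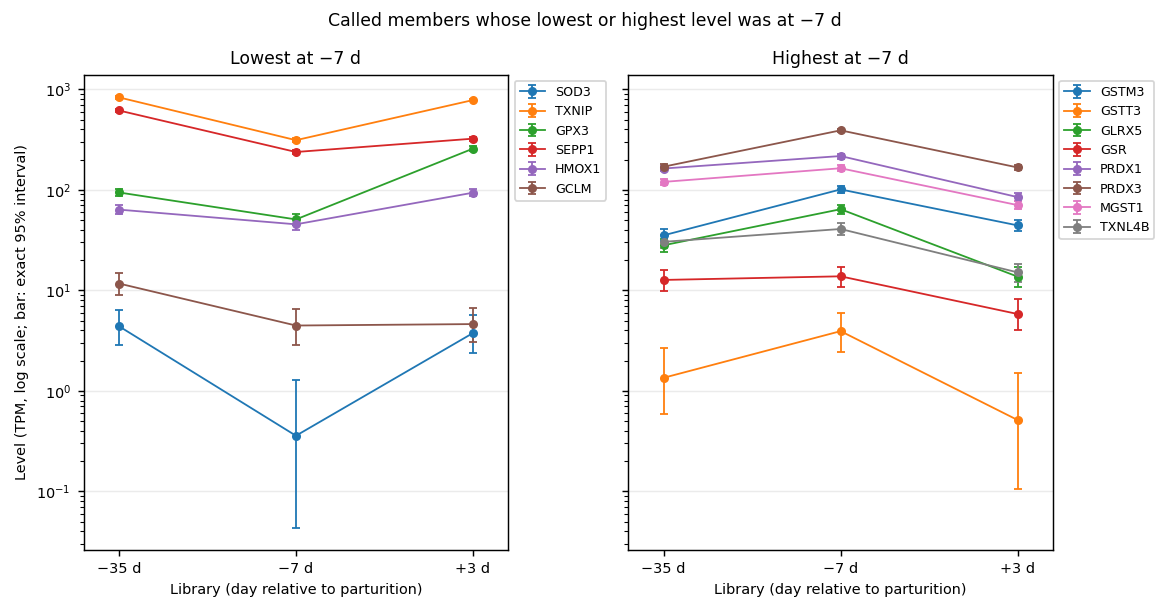
Levels in TPM (log axis, bars are exact 95% counting intervals) of the called members whose lowest (left, 6 genes) or highest (right, 8 genes) level was at −7 d. The −7 d levels of SOD3, TXNIP and PRDX3 lie outside the intervals of both other libraries, whereas those of GSR at −35 d and −7 d overlap.

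With TPM scaling, 6 called members (8.82%) were lowest at −7 d (SOD3, TXNIP, GPX3, SEPP1, HMOX1 and GCLM), and with TMM the same genes without GCLM (5, or 7.35%), beside 5.82% and 6.53% of all genes. SOD3, GPX3 and SEPP1 encode secreted proteins. Marker lists of some other cell types had their lowest sums in the same library. The 12 macrophage markers summed to 499, 337 and 581 TPM, with 4 called down in stage I and 3 called up in stage II, and MSR1 (1 of 2 accessions) and ITGAM were at 0 at −7 d, as was ITGAM at +3 d. CD163, the hemoglobin scavenger receptor of macrophages, had 7.78, 1.97 and 19.8 TPM, but CD14 (2.87, 4.29 and 19.7 TPM) was not lowest at −7 d. C1QA and C1QB changed little in stage I, from 98.9 to 94.2 and from 105 to 99.2 TPM. The 9 markers of smooth muscle and myoepithelium summed to 900, 551 and 1144 TPM, with 2 down in stage I, 4 up in stage II and none at 0. Of these, MYLK, DES and OXTR were lowest at −35 d and KRT14 was lowest at +3 d. Over all genes, 6.45% were called down in stage I and 3.12% up in stage II. The 7 adipocyte markers summed to 210, 137 and 281 TPM, with PLIN4 at 0 at −7 d and at +3 d, but FABP4 alone gave 153, 91.4 and 244 TPM of these, and ADIPOQ, CIDEC and LEP were not lowest at −7 d. Their part in the values of these members was not tested.

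Highest at −7 d were 8 called members with TPM scaling (GSTM3, GSTT3, GLRX5, GSR, PRDX1, PRDX3, MGST1 and TXNL4B, 11.8%) and 6 with TMM (GSTM3, GLRX5, PRDX1, PRDX3, TXNL4B and TXNL1, 8.82%), beside 7.56% and 5.79% of all genes. None of the 10 marker lists summed highest at −7 d. The 13 T cell markers (none at 0) summed to 292, 180 and 166 TPM, and 12 of them were lower at +3 d than at −35 d on the TPM scale. Of the 9 luminal markers 8 were lower at +3 d than at −35 d, but 6 had a stage II log2 ratio above 0. The part of either list in the declines of members was not tested.

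Genes of neighbouring pathways were counted in lists that hold no member. The shares of all genes called were 2.62% up and 6.45% down in stage I and 3.12% and 10.4% in stage II. With TMM these shares were 4.22% and 3.90% in stage I and 5.87% and 4.90% in stage II. The list of glutathione turnover and NADPH supply (20 genes) had no upregulated gene in either stage and 3 downregulated ones in stage II. They were TALDO1 and TKT of the pentose phosphate pathway, which makes NADPH, and GGCT, which clears γ-glutamyl amino acids. TALDO1 had 257, 380 and 86.9 TPM (stage II log2 ratio −2.13), TKT had 159, 205 and 95.5 TPM (−1.10, not called with TMM) and GGCT had 7.95, 8.58 and 2.39 TPM (−1.84). Aminopeptidase N (ANPEP), an enzyme of glutathione breakdown at the cell surface, had 27.1, 13.1 and 25.3 TPM. Its stage I fall was not called with TMM, and its stage II rise (0.96) was called with TMM alone. In the list of cysteine supply (14 genes), SLC3A2 fell in stage I from 73.2 to 24.5 TPM (−1.58). It is a heavy chain of amino acid carriers, that of cystine among them. CDO1, the dioxygenase that consumes cysteine, had 4.73, 0.894 and 5.30 TPM, with log2 ratios of −2.40 in stage I, not called with TMM, and 2.57 in stage II, called with both scalings.

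Among 12 genes of oxidant sources, XDH, xanthine oxidoreductase, which makes superoxide and peroxide and is also a structural protein of the milk fat globule, had 299, 827 and 1391 TPM. It rose in stage I (1.47) and was 2.22 higher on the log2 scale at +3 d than at −35 d. LPO, lactoperoxidase, a milk enzyme that uses hydrogen peroxide against bacteria, had 0, 2 and 440 tags (75.3 TPM at +3 d), a stage II log2 ratio of 7.72 (5.86 to 10.77). CYBA and CYBB, the membrane subunits of the phagocyte NADPH oxidase, both fell in stage I, from 41.8 to 14.3 and from 24.5 to 6.44 TPM. The list thus held milk enzymes that rose and phagocyte genes that fell.

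In the list of other selenoproteins and their synthesis (12 genes), SELM, of the endoplasmic reticulum, had 25.9, 27.9 and 65.5 TPM. It was the one called up in stage II (1.23), with no call in stage I. Iron and heme handling (21 genes) had 3 genes down in stage I and 3 up and 2 down in stage II, which were 3, 3 and 1 with TMM. In copper and zinc handling (18 genes) the copper carriers SLC31A1 and SLC31A2 had 112, 179 and 67.9 TPM and 47.3, 150 and 81.3 TPM. SLC31A2 rose in stage I (1.67) and SLC31A1 fell in stage II (−1.40). The repair and defence enzymes (23 genes) had 4 down in stage I, with QSOX1, which forms disulfide bonds in secreted proteins, at 181, 62.8 and 132 TPM, and 2 up and 4 down in stage II. With TMM these counts were 3 down, and 3 up and 3 down. Of 12 other regulators, SQSTM1 had 175, 81.9 and 129 TPM, with a stage I fall not called with TMM. ATF3 and MAFF rose in stage II, from 3.75 to 16.4 and from 8.05 to 18.3 TPM.

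**Figure D5:**
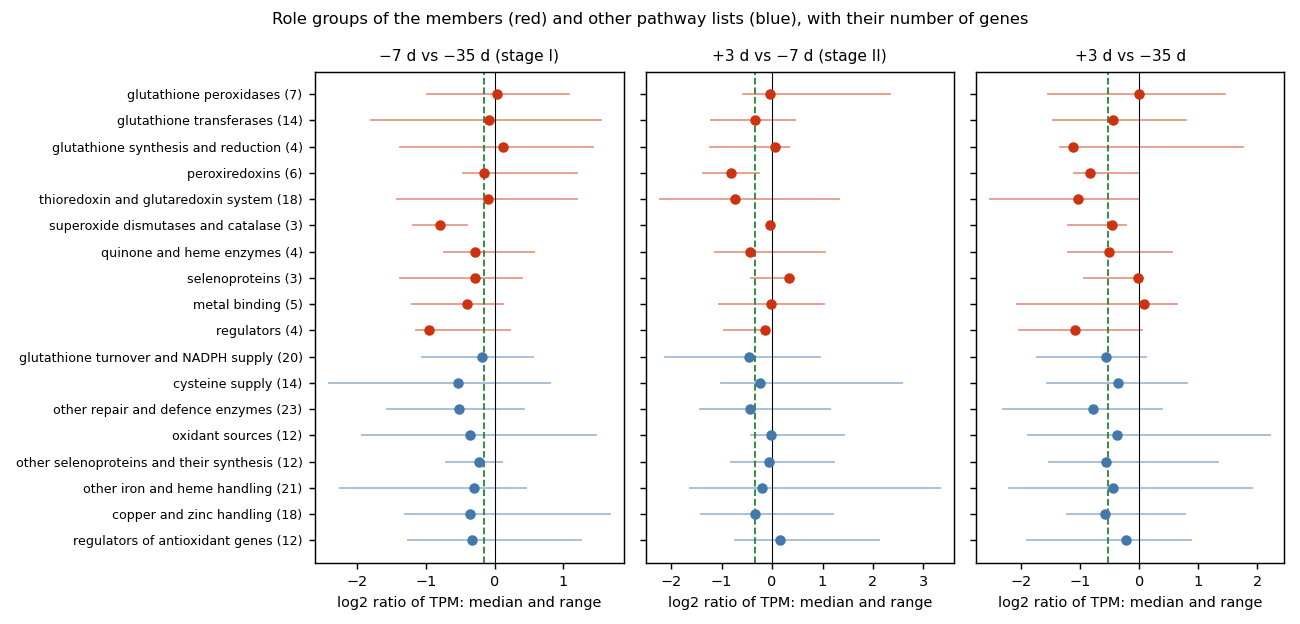
Median (point) and range (line) of the log2 ratio of TPM for the 10 role groups of members (red) and the 8 other pathway lists (blue), over genes with over 3 tags in both libraries, which leaves SOD3 out of the 2 stages. The green dashed line is the median of all genes averaging 5 TPM or more, and peroxiredoxins (−0.82) and the thioredoxin and glutaredoxin group (−0.74) lie left of it in stage II, and the regulators (−0.95) lie left of it in stage I.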

How the data were processed

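The authors pooled mammary tissue of 6 cows per time, made 1 DGE library per pool with an enzyme that cuts at CATG, and removed tags with adaptors, unknown bases, wrong length or a single copy. Clean tags were matched by the authors to CATG and the next 17 bases of genes of Bos taurus UMD 3.1 with at most 1 mismatch, and tags of several genes were left out. The deposited counts are copies of each distinct tag and unambiguous tags summed per gene, and the deposited TPM divides the latter by the clean tags of the library (recomputed values differed by at most 0.00500 TPM).

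Here the 3 gene tables were joined by accession, and a gene not listed was taken as 0 tags. Of the 68 members, 67 matched an annotation of ARS-UCD2.0, used for names only. The Audic-Claverie p was the smaller tail doubled, with Benjamini-Hochberg adjustment over all genes with a tag in either library and 0 TPM set to 0.01. A fold with a library at 0 was computed with 3 tags in its place and is not a lower limit. Counts were not fitted with edgeR's quasi-likelihood test, which has no residual degrees of freedom with 1 library per time. Alternatives were TMM (edgeR 4.0.16) and DESeq2 1.42.0 size factors, totals without genes over 1% of a library, a minimum mean of 5 TPM, a 3-fold threshold, Fisher's exact test, the exact test of edgeR where a coefficient of variation of 0.2 was assumed, 0.5 tags added, and medians of members with over 3 tags in both libraries. Counts of members turning at −7 d with TMM were added after seeing the data. Statistics ran in Python 3.11.15 with scipy 1.17.1 and in R 4.3.3. Only the Audic-Claverie test was tested on simulated data, which held counting error but no spread between cows.

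Named genes were members called in any comparison, with a mean of at least 100 TPM or with the most tags of their role group, and the called genes of other lists with the most extreme log2 ratios. Other genes in the text were named after their values were seen. The members and all lists were chosen with earlier results of these data known. The remaining marker lists summed, at −35 d, −7 d and +3 d, to 2719, 1725 and 1203 TPM (neutrophils, mostly LTF), 317, 176 and 182 (B and plasma cells), 237, 237 and 328 (endothelium) and 2.37, 1.79 and 4.11 (erythrocytes). The authors' summary table and tag sequences were not used for members.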

Additional observations from a re-analysis of the deposited data

How the results depend on the processing

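The 10 members called down in stage I became 3 with TMM, 3 with DESeq2 size factors and 8 with totals that left out genes over 1% of a library, and the 12 of stage II became 4, 3 and 4. Over the whole interval the 23 called down became 5, 5 and 7 under these 3 scalings, and the 2 called up became 6, 6 and 4. The median log2 ratio of members in stage I, −0.17, turned to 0.02 with TMM and 0.03 with DESeq2 and was −0.11 with the reduced totals, and that of the whole interval, −0.76 over all members tested, moved to −0.26, −0.25 and −0.40 with TMM, DESeq2 and the reduced totals. With a 3-fold threshold the counts up and down were 0 and 1 in stage I, 2 and 2 in stage II, and 1 and 6 over the whole interval. Under the assumed coefficient of variation of 0.2 in edgeR, they were 0 and 0 in stage I and 1 (GPX3) and 1 (GLRX5) in stage II. Over the whole interval they were 0 and 2 (GLRX2 and NFE2L3). Fisher's exact test kept all 14, 16 and 25 calls of stage I, stage II and the whole interval, and a minimum mean of 5 TPM kept 13, 14 and 22. No called member was called in the opposite direction under any of these alternatives. Depth limits members with few tags (SOD3, GPX2, GSTT3, GSTO1, GCLC and MT3). No paired analysis was possible because each time point is a single library, which also means that no replicate could be left out.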

Other observations

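Genes of related description that are neither members nor in a list above were looked up after the values were seen. Of 8 such genes, 2 were called up and none down in stage I, with both scalings, and none up and 3 down in stage II, of which 1 was called with TMM. Over all genes, 2.62% were called up in stage I (4.22% with TMM) and 10.4% down in stage II (4.90% with TMM). LOC525947, described as like serotransferrin, had 11.8, 48.6 and 12.5 TPM at −35 d, −7 d and +3 d, with log2 ratios of 2.04 in stage I and −1.96 in stage II that were called with both scalings, while TF itself had at most 2.91 TPM. HAGHL, a relative of the glyoxalase that releases glutathione, had 2.87, 9.65 and 8.38 TPM and rose in stage I with both scalings (1.75). The membrane-bound thioredoxin relative TMX1 had 40.1, 33.4 and 15.9 TPM, and its fall in stage II (−1.07) was not called with TMM.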
